A study of Mus musculus with 2 samples.

Results

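The genes described here move melanosomes, the pigment organelles, inside melanocytes. They are 6 of the 32285 genes counted, chosen by name for their place in 1 transport pathway: *Rab27a*, *Mlph*, *Myo5a*, *Sytl2*, *Myrip* and *Rab27b*. They were read in melanocytes, defined as cells with at least 1 *Dct* UMI, under 3 UMIs of *Krt10* and *Krt14* together, under 5% mitochondrial UMIs and more than 10000 UMIs in the early-anagen library or more than 5000 in the bulb library. A UMI is a tag that marks 1 captured mRNA molecule. Of 11010 cell barcodes in the early-anagen library 2785 met the rule, and of 4327 in the bulb library 3734 did.

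The study set melanocyte stem cells (McSCs) that had just been activated for hair regrowth beside mature, pigment-producing melanocytes of the hair bulb. Both libraries came from back skin of mice of the genotype Dct-rtTA; tetO-H2B-GFP, in which the *Dct* promoter drives a doxycycline-dependent GFP, and both groups ate doxycycline chow for 4 days, so the GFP+ sort could take any cell with an active *Dct* promoter. The early-anagen McSCs were taken 4 days after depilation at 8 weeks of age (anagen II), and the bulb melanocytes from dissected hair bulbs of mice 5 weeks old (anagen VI). Each group was 1 library of cells from 4 mice, so no difference between them has a replicate check and none carries a test. The kit version (version 3 for early anagen, version 2 for the bulb), the dissociation, the age and the depth changed together with the stage and cannot be told apart from it.

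In melanocytes the small GTPase RAB27A sits on the melanosome membrane in its GTP-bound form and recruits melanophilin, the product of *Mlph*, which in turn binds the actin motor myosin Va, the product of *Myo5a*. The 3 proteins hold melanosomes in the cell periphery, from where pigment is passed to hair keratinocytes, and mice that lack any of them (ashen, leaden and dilute) have melanosomes clumped around the nucleus and a pale coat. *Sytl2* encodes SLP2-A, another RAB27A effector, which tethers melanosomes at the plasma membrane. *Myrip* encodes a melanophilin relative that links RAB27A to myosin VIIa in the retinal pigment epithelium, and *Rab27b* is the paralogue of *Rab27a*.

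Positions are in the files' build (GRCm38) and were taken from the GENCODE vM21 annotation. *Mlph* lies at chr1:90915085-90951142, *Rab27a* at chr9:73044854-73097629, *Myo5a* at chr9:75071015-75223688, *Sytl2* at chr7:90302252-90410719 and *Myrip* at chr9:120301513-120474841, all on the + strand. *Rab27a* and *Myo5a* thus lie 1.97 Mb apart on 1 chromosome. The annotated features that overlap these genes were processed pseudogenes, none of which was counted in the matrices.

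Because 4 of the members were all higher in early-anagen cells with *Oca2* than in those without, as given further down, the promoters of the core complex are shown so that they can be read side by side; what sets the levels was not tested. RefSeq windows of GRCm38.p6, from 250 bases before to 50 after a start site, were read for 4 of the 6 members. These gave 5 windows, and none was read for *Sytl2* or *Rab27b*. The 250 bases upstream are printed for the 3 genes of the core complex, all on the + strand, with CACGTG, the E-box that MITF and other basic helix-loop-helix factors can bind, in capitals.
Mlph, chr1:90914850-90915099: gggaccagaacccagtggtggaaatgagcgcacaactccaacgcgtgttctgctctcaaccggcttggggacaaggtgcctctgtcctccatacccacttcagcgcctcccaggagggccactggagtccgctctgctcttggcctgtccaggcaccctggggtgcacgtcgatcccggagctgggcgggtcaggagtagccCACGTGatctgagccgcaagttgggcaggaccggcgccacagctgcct
Rab27a, first start site, chr9:73044560-73044809: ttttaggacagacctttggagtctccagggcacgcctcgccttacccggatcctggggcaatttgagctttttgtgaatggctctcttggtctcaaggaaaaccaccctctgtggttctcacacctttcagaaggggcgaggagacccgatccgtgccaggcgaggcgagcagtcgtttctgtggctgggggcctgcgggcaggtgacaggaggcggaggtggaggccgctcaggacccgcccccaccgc
Rab27a, second start site, chr9:73063898-73064147: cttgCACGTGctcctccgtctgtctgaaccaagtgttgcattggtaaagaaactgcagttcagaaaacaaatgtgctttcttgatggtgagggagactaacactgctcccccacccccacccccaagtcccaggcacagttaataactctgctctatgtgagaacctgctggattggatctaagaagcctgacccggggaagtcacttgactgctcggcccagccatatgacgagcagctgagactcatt
Myo5a, chr9:75070956-75071205: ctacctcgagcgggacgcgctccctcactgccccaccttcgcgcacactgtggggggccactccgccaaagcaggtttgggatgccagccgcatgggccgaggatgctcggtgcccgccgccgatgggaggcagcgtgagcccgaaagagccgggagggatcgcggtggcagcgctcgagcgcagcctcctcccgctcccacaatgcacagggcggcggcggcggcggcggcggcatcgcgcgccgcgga
The 6 letters, which read the same on both strands, stood once in *Mlph*, with the first base at -48 from the start site, and once before the second start site of *Rab27a*, at -246. They were not in the windows of the first *Rab27a* start site, *Myo5a* or *Myrip*, and CATGTG, searched on both strands as CATGTG or CACATG, was in none of the 5. Of 32851 mouse windows of the same length, 7.15% held CACGTG and 14.2% held CATGTG or CACATG. A match is a string of letters, not a measured binding site.

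Markers of the labelled cell type were read in the selected cells. Of 8 melanocyte genes (*Dct*, *Tyr*, *Tyrp1*, *Pmel*, *Mlana*, *Mitf*, *Sox10* and *Kit*), 8 were at 10 CPM (UMIs of a gene scaled to a common library total) or more in both groups. The lowest was at 120 CPM in early anagen and 108 in the bulb. *Dct* was part of the sort and of the rule, and the rule also limited *Krt10* and *Krt14*, so these genes are no independent check of the label. Markers of fibroblasts, endothelium, muscle and Schwann cells were each below 1 CPM. The 5 keratin markers summed to 22.03 CPM in early anagen and 16.5 CPM in the bulb, and 3 immune markers to 16.4 and 7.498 CPM. The groups held 75718468 and 55883067 UMIs, with a median of 24528 and 14286.5 per cell, and 1 barcode was shared by the libraries. Intervals in the text are exact 95% intervals that cover counting error only, and CPM was not divided by transcript length, since a 3′ kit counts 1 tag per molecule.

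The members did not go one way between the stages. *Rab27a* was higher in bulb melanocytes, *Sytl2* and *Myo5a* were higher in early-anagen McSCs, and *Mlph* differed little, in a direction that turned with the scaling. *Myrip* and *Rab27b* were near the limit of detection in both groups.

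*Rab27a*, the switch that marks a melanosome for capture, gave 6862 UMIs and 90.6 CPM (88.5 to 92.8) in early-anagen McSCs and 8925 UMIs and 160 CPM (156 to 163) in bulb melanocytes. It was 1.76-fold higher in the bulb (1.71 to 1.82), a log2 ratio of 0.82, and 79.7% of the 8020 genes that reached 10 CPM on 1 side or both had a lower ratio. *Mlph*, the adaptor, stood at 189 CPM (186 to 192) in early anagen and at 156 (152 to 159) in the bulb, a log2 ratio of -0.28 (-0.32 to -0.24). With TMM factors in place of total UMIs that ratio turned to 0.034, so no direction is given for *Mlph*. *Myo5a*, the motor, stood at 266 CPM (262 to 270) in early anagen and at 167 (163 to 170) in the bulb, a log2 ratio of -0.67 (-0.71 to -0.64). Of the 8020 genes, 36.4% had a lower ratio than *Myo5a* and 47.2% a lower ratio than *Mlph*, so neither stood far from the middle.

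*Sytl2*, the tether, showed the widest gap of the abundant members. It stood at 112 CPM (110 to 115) in early anagen and at 26.9 (25.6 to 28.3) in the bulb, which was 4.17-fold lower in the bulb (3.95 to 4.41), a log2 ratio of -2.06. Scaled to total UMIs, it was the only one of the 4 members above 10 CPM that was 2-fold apart. With TMM factors the log2 ratio of *Rab27a* was 1.13 (1.09 to 1.18), so *Rab27a* was then 2-fold apart as well. By total UMIs 28.7% of genes at that level were 2-fold lower in the bulb and 16.3% were 2-fold higher. With TMM factors these shares were 22.2% and 23.7%. By total UMIs 11.6% of the genes had a lower ratio than *Sytl2*. The median log2 ratio over the 6 members was -0.48, beside -0.42 over the 15502 genes seen on both sides. It includes *Myrip* and *Rab27b* at the limit of detection, and was -0.16 with TMM factors, -0.83 with at least 3 *Dct* UMIs and -1.37 with cells of under 0.5% melanocyte-gene UMIs (from *Dct*, *Tyrp1*, *Pmel* and *Mlana*) left out. Relative to that all-gene median, *Rab27a* was 1.24 higher on the log2 scale, *Mlph* 0.14 higher, *Myo5a* -0.25 and *Sytl2* -1.64. TMM factors moved the all-gene median to -0.11.

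**Figure D1:**
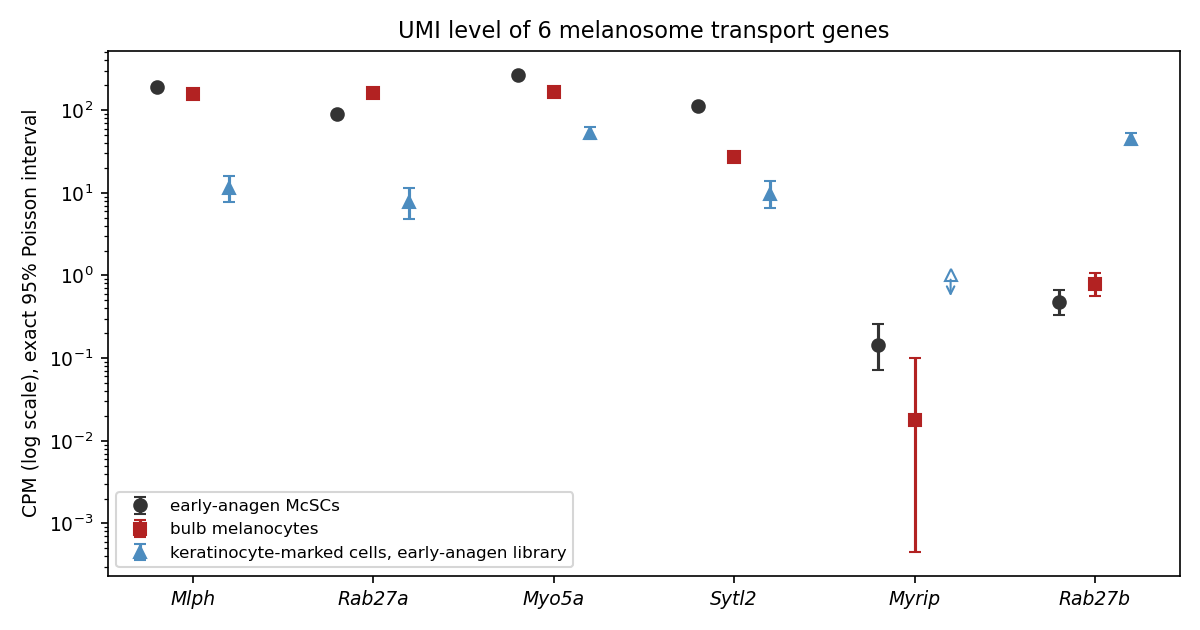
Level of each of the 6 genes (CPM, log axis, exact 95% Poisson intervals) in early-anagen McSCs (2785 cells), bulb melanocytes (3734) and keratinocyte-marked cells of the early-anagen library (76); the open symbol with an arrow is the limit that a count of 0 allows. *Rab27a* is higher in the bulb, 160 beside 90.6 CPM, *Sytl2* is lower, 26.9 beside 112 CPM, and *Rab27b* is at 45.0 CPM in the keratinocyte-marked cells.

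Within each library the balance of the parts therefore differed. For each *Rab27a* UMI early-anagen McSCs held 2.09 *Mlph* UMIs (2.03 to 2.15), 2.93 *Myo5a* UMIs (2.85 to 3.02) and 1.24 *Sytl2* UMIs (1.20 to 1.28). In bulb melanocytes the same ratios were 0.975 (0.947 to 1.004), 1.04 (1.01 to 1.07) and 0.169 (0.159 to 0.178). The 3 genes of the core complex were thus captured at about equal counts in the bulb and at unequal counts in early anagen. These ratios do not depend on the scaling to total UMIs, but the share of a gene's transcripts that a kit version captures was not tested.

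The paralogue and the retinal adaptor added next to nothing to these totals. *Myrip* gave 11 UMIs in 11 early-anagen cells and 1 UMI in the bulb (0.145 and 0.0179 CPM). *Rab27b* gave 36 UMIs in 33 early-anagen cells (0.475 CPM) and 44 UMIs in 19 bulb cells (0.787 CPM). Of the 44 bulb UMIs, 39 lay in 14 of the 18 selected bulb cells with under 0.5% of their UMIs from *Dct*, *Tyrp1*, *Pmel* and *Mlana*. Those 18 cells held 34 *Dct* UMIs in all, 1 UMI of *Rab27a* and none of *Mlph*. Without them *Rab27b* was at 5 UMIs (0.0898 CPM) in the bulb, and the early-anagen group had 25 such cells, with 1 of its 36 *Rab27b* UMIs. With such cells left out of both groups its log2 ratio went from 0.73 to -2.37.

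Cells of another type in the same library show how much of the members was counted in cells that should lack melanosome transport. In the early-anagen library 76 cells had more keratin UMIs (*Krt5*, *Krt14*, *Krt10*, *Krt1* and *Krt15*) than UMIs of *Dct*, *Tyrp1*, *Pmel* and *Mlana*, and still held 547 CPM of *Dct*. *Mlph* was at 11.3 CPM in them, *Rab27a* at 7.67, *Sytl2* at 9.66 and *Myo5a* at 53.3. Each was below its level in McSCs, by the smallest margin for *Myo5a*, which many cell types express. *Rab27b* went the other way, with 135 UMIs and 45.0 CPM (37.7 to 53.3).

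At an equal depth of 5000 UMIs the shares of cells with a UMI followed the levels. *Rab27a* was detected in 33.8% of early-anagen McSCs (32.0 to 35.6) and 53.9% of bulb melanocytes (52.3 to 55.5). *Sytl2* was detected in 38.7% (36.9 to 40.5) and 13.3% (12.2 to 14.4), *Myo5a* in 66.3% and 54.1%, and *Mlph* in 57.1% (55.2 to 58.9) and 54.6% (52.9 to 56.2). Before thinning, with deeper early-anagen cells, the shares were 76.1% and 85.5% for *Rab27a*, 81.0% and 32.3% for *Sytl2*, 97.2% and 86.4% for *Myo5a*, and 92.6% and 85.8% for *Mlph*. In the keratinocyte-marked cells, whose median depth before thinning was 34448.5 UMIs, 3.95% had *Rab27a* at 5000 UMIs, 5.26% *Sytl2*, 21.1% *Myo5a* and 2.63% *Mlph*.

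All parts of the core complex (*Rab27a*, *Mlph* and *Myo5a*) were seen in the same cell at 5000 UMIs in 16.5% of early-anagen McSCs (15.1 to 17.9) and 17.0% of bulb melanocytes (15.8 to 18.3). The product of the separate shares was 12.8% in early anagen and 15.9% in the bulb. None of the 76 keratinocyte-marked cells held all 3, which allows a share of up to 3.95%, but the product of their separate shares was 0.0219%, a share that 76 cells cannot show. Adding *Sytl2*, all 4 genes were seen in 9.08% of early-anagen McSCs (8.04 to 10.2) and 2.87% of bulb melanocytes (2.35 to 3.45). No member of the 4 was seen in 9.87% and 9.27%.

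The 4 abundant members had a higher variance relative to their mean in early anagen than in the bulb. The variance of UMIs over the mean at 5000 UMIs was 1.63 for *Myo5a*, 1.37 for *Sytl2*, 1.33 for *Mlph* and 1.20 for *Rab27a*. Among genes of a mean between 0.1 and 2 UMIs the median there was 1.06 and the upper quartile 1.11, and all 4 lay above that quartile. Those genes were not matched to the members' means, which ran from 0.450 UMIs for *Rab27a* to 1.39 for *Myo5a*, and the part of abundance was not tested. In bulb melanocytes the 4 values lay between 1.04 and 1.11, beside a median of 1.03 and an upper quartile of 1.06. The mean of *Sytl2* was 0.586 UMIs in early anagen and 0.146 in the bulb, and that of *Myo5a* 1.39 and 0.827. For *Rab27a* the means were 0.450 and 0.791, and for *Mlph* 0.983 and 0.803. The values of the members were therefore taken at unlike levels, most so for *Sytl2*.

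**Figure D2:**
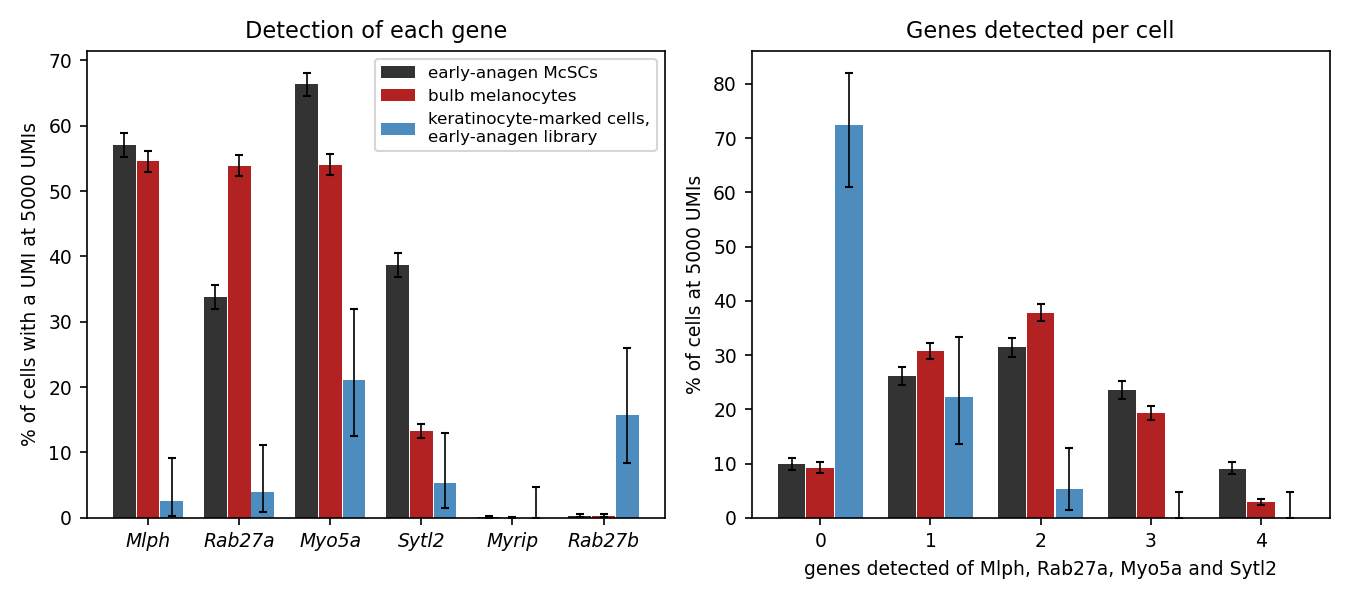
Left, share of cells with at least 1 UMI of each gene after thinning to 5000 UMIs; right, share of cells by how many of *Mlph*, *Rab27a*, *Myo5a* and *Sytl2* were seen (bars with Clopper-Pearson 95% intervals). *Sytl2* goes from 38.7% in early anagen to 13.3% in the bulb and *Rab27a* from 33.8% to 53.9%, while 72.4% of the keratinocyte-marked cells hold none of the 4.

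The early-anagen McSCs were then divided by *Oca2*, a melanosome ion channel gene of late pigmentation, with which the study marked the more differentiated McSCs. After thinning each cell to 10000 UMIs, 288 cells (10.3%) had at least 1 *Oca2* UMI and 2497 had none. Before thinning 454 of the 2785 cells had one, so the *Oca2*- group includes cells with *Oca2* transcripts. All 4 abundant members were higher in the *Oca2*+ cells, and *Rab27a* most. *Rab27a* was at 154 CPM (140 to 169) in *Oca2*+ and 83.0 CPM (79.4 to 86.6) in *Oca2*- cells, a log2 ratio of 0.89 (0.74 to 1.04). *Mlph* was at 283 CPM (264 to 303) and 187 (182 to 193), a log2 ratio of 0.60 (0.49 to 0.70). *Myo5a* was at 418 CPM (395 to 442) and 276 (269 to 282), a log2 ratio of 0.60 (0.51 to 0.69). *Sytl2*, which was lower in the bulb, was also higher in the *Oca2*+ cells, at 166 CPM (152 to 182) and 115 (111 to 120), a log2 ratio of 0.53 (0.38 to 0.67).

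None of the 4 was 2-fold apart by this split, although *Rab27a* was, at a log2 ratio of 1.01, with at least 2 *Oca2* UMIs against none. Few genes were 2-fold apart: 1.58% of 7804 genes were 2-fold higher in *Oca2*+ cells and 2.37% were 2-fold lower. Against that narrow spread, between 92.0% (*Sytl2*) and 98.0% (*Rab27a*) of genes had a lower ratio than the member. The all-gene median was 0.06. Both sides of the split come from 1 library and 1 kit, and the cells had a median of 27245 and 24132 UMIs before they were thinned. *Rab27b* had 0 UMIs in *Oca2*+ cells and 16 in *Oca2*- cells, and *Myrip* had 2 and 5.

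Fewer of the *Oca2*+ cells were cycling: 24.0% of *Oca2*+ and 38.3% of *Oca2*- cells had a UMI of *Mki67* or *Top2a*, proliferation genes. Among cells with neither (219 against 1540) the log2 ratios were 0.96 for *Rab27a* and 0.50 each for *Mlph*, *Myo5a* and *Sytl2*, where 1.79% of genes were 2-fold higher and 1.94% lower. Compared directly, the 1026 cycling cells held less *Myo5a*, *Mlph* and *Sytl2* than the 1759 others. The log2 ratio was -0.59 for *Myo5a* (-0.66 to -0.52), -0.43 for *Mlph* (-0.52 to -0.35), -0.39 for *Sytl2* (-0.50 to -0.28) and -0.15 for *Rab27a* (-0.27 to -0.03). For *Rab27a* it was -0.045 (-0.17 to 0.085) among cells with no *Oca2* UMI, and its interval spanned 0 also with at least 2 cycling UMIs and at 5000 UMIs, so no direction is given for it. By this split 0.476% of genes were 2-fold lower in cycling cells and 4.77% were 2-fold higher, and the all-gene median was -0.03. Cycling cells were deeper, with a median of 34540 beside 20884 UMIs before thinning. When early-anagen cells were ranked by depth and cut into 4 groups of near equal size, *Myo5a* went from 337 CPM in the shallowest to 219 in the deepest, *Sytl2* from 134 to 94.7 and *Mlph* from 209 to 167, and *Rab27a* stayed between 77.4 and 99.1. The part of depth in the cycling ratios was not tested.

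**Figure D3:**
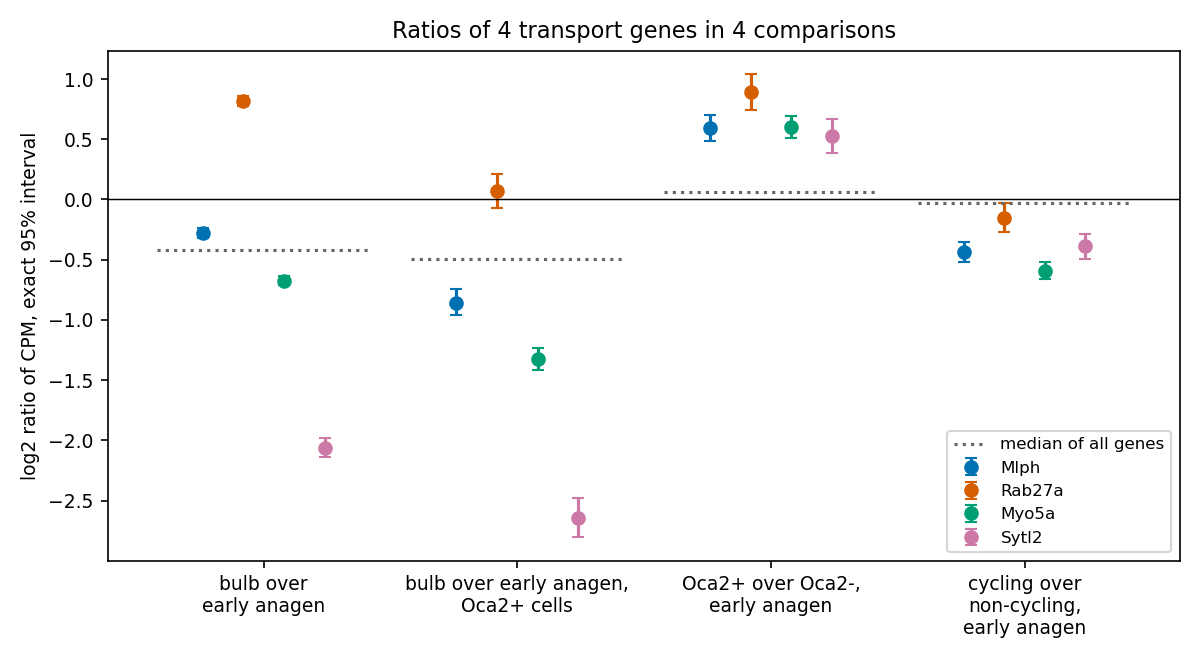
Log2 ratio of CPM with exact 95% intervals for 4 members in 4 comparisons; dotted lines are the median of all genes in the same comparison. All 4 are above 0 for *Oca2*+ over *Oca2*- cells (0.53 to 0.89), and for the bulb over early anagen *Rab27a* is at 0.82 and *Sytl2* at -2.06, with *Mlph* at -0.28, which TMM factors turn to 0.034.

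The members were then read by the number of *Oca2* UMIs; differences between members in this were not tested. *Rab27a* was at 83.0 CPM with 0 *Oca2* UMIs, 139 with 1, 164 with 2, 173 with 3 to 5 and 161 with 6 or more, where only 18 cells were left. The intervals of the classes with any *Oca2* UMI overlapped, and each lay above that of the class with none. *Myo5a* went from 276 CPM to 347 (316 to 380) with 1, 452 (405 to 503) with 2 and 508 (454 to 567) with 3 to 5. It was at 483 (387 to 596) with 6 or more. *Mlph* went from 187 (182 to 193) to 267, 291 and 329 CPM, and was at 211 (149 to 290) in the last class. *Sytl2* went from 115 (111 to 120) to 158, 180 and 173 CPM, and was at 150 (98.9 to 218) in the last class. For both, the interval of the last class overlapped that of the class with no *Oca2* UMI. *Tyr*, the enzyme that limits melanin synthesis, went over the same classes from 507 to 983, 1149, 1340 and 1517 CPM.

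Bulb melanocytes, nearly all of which had *Oca2* (3132 of 3288 at 10000 UMIs), were read in 3 classes by *Oca2* UMIs (0 to 4, 5 to 7 and 8 to 19). *Rab27a* was at 146 CPM (140 to 153), 165 (158 to 173) and 173 (164 to 183), and *Myo5a* at 152 (146 to 159), 173 (165 to 181) and 175 (166 to 184). For both, the interval of the class with the fewest *Oca2* UMIs lay below those of the other classes. *Mlph* was at 154, 160 and 152 CPM and *Sytl2* at 27.1, 27.7 and 24.5, with overlapping intervals. The 156 bulb cells with no *Oca2* UMI held 103 CPM of *Rab27a* beside 162 in the rest, a log2 ratio of 0.65 (0.42 to 0.89). No abundant member was 2-fold apart by that split, in which 0.668% of genes were 2-fold higher and 4.28% lower in cells with *Oca2*, among the latter *Rab27b* (3 and 26 UMIs). Without the cells of under 0.5% melanocyte-gene UMIs the log2 ratio of *Rab27a* was 0.44 (0.22 to 0.66) and that of *Myo5a* 0.31 (0.11 to 0.52). The intervals of *Mlph* and *Sytl2* spanned 0.

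**Figure D4:**
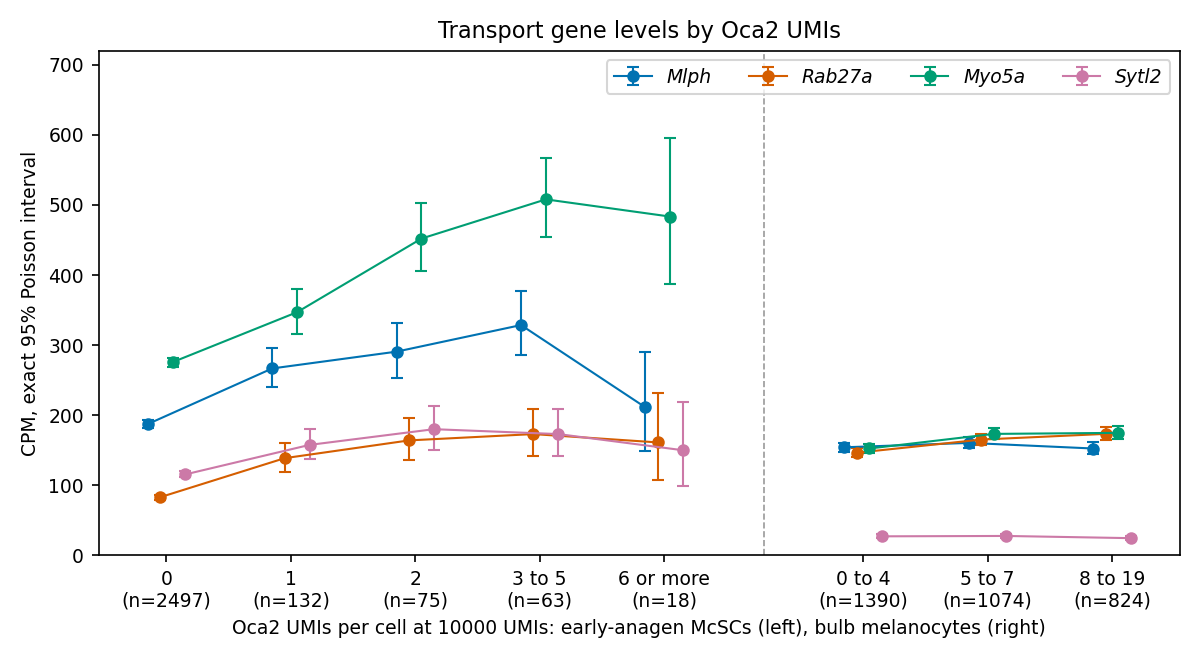
CPM of 4 members with exact 95% intervals by the number of *Oca2* UMIs per cell after thinning to 10000 UMIs, in 5 classes of early-anagen McSCs and 3 of bulb melanocytes (n, cells). *Rab27a* goes from 83.0 CPM at 0 *Oca2* UMIs to 173 at 3 to 5, beside 146 to 173 in the bulb classes, and *Myo5a* and *Sytl2* in every *Oca2* class of early anagen are above all bulb classes.

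With *Oca2*+ cells of both libraries side by side, the interval of *Rab27a* spanned 0 when scaled to total UMIs. It was at 162 CPM in the bulb and 154 in early anagen, a log2 ratio of 0.07 (-0.07 to 0.22), but the median of all genes was -0.49 and *Rab27a* lay 0.56 above it. Another scaling was not run for this comparison. The other members stood further apart than in the libraries as a whole: *Mlph* at 156 beside 283 CPM, a log2 ratio of -0.86 (-0.96 to -0.75), *Myo5a* at 167 beside 418, -1.32 (-1.42 to -1.23), and *Sytl2* at 26.6 beside 166, -2.64 (-2.81 to -2.48). In that comparison 27.3% of genes were 2-fold lower in the bulb and 13.4% were 2-fold higher, and 2 of the 4 members, *Myo5a* and *Sytl2*, were 2-fold lower. Among *Oca2*+ cells without a cycling UMI the log2 ratios were -0.0039 (-0.16 to 0.16) for *Rab27a*, -0.90 for *Mlph*, -1.42 for *Myo5a* and -2.74 for *Sytl2*, where 26.7% of genes were 2-fold lower and 13.8% higher. For *Myo5a* and *Sytl2* the order of levels was thus *Oca2*+ early anagen, then *Oca2*- early anagen, then bulb, with intervals apart at each step. Those intervals cover counting error only and leave out differences between mice. In *Oca2*+ early-anagen cells the variance of UMIs over the mean at 10000 UMIs was 2.15 for *Myo5a* and 1.60 for *Sytl2*, where counting error alone gives 1. For *Rab27a*, *Oca2*- early anagen was lowest, and bulb and *Oca2*+ early anagen were close relative to total UMIs. Relative to the all-gene median the bulb over *Oca2*+ early anagen ratio was 0.56, so no order is given for them.

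Co-detection went with the same split. At 10000 UMIs all of *Rab27a*, *Mlph* and *Myo5a* were seen in 63.9% of *Oca2*+ early-anagen cells (58.0 to 69.4), 36.9% of *Oca2*- cells (35.0 to 38.9) and 46.9% of bulb melanocytes (45.1 to 48.6). The products of the separate shares were 63.9%, 33.4% and 45.7%. All 4 genes with *Sytl2* were seen in 44.8%, 24.7% and 11.3%.

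Over 9 groups of cells (early-anagen McSCs by *Oca2* class and cycling, and bulb melanocytes in 3 classes of *Oca2*), the levels of *Mlph* and *Myo5a* ran together, with a Pearson r of 0.96 on log2(CPM + 1). *Sytl2* ran with *Myo5a* (0.91) and *Mlph* (0.84). *Rab27a* gave 0.19 with *Mlph*, 0.02 with *Myo5a* and -0.33 with *Sytl2* over the 9 groups, which mix both libraries. Over the 6 early-anagen groups alone it gave 0.94, 0.87 and 0.90. These groups are cut by the *Oca2* and cycling splits given above, so these values restate those splits. What sets the low values over the 9 groups was not tested. Out of 3451 genes that reached 50 CPM in 1 library or both, those most like *Rab27a* were *Syt4*, a synaptotagmin (0.98), *Eps8*, an actin-capping adaptor (0.97), and *Ralgps2* (0.97). Those most like *Mlph* were *Ago2* (0.98), *Fam53b* (0.98) and *Tcf25* (0.98), and those most like *Myo5a* were *Ago2* (0.99), *Etl4* (0.98) and *Washc2* (0.98). *Sytl2* was nearest to *Qk* (0.997), *mt-Co1* (0.996) and *Marcks* (0.996), each also lower in the bulb, with log2 ratios of -1.84, -1.20 and -1.45. The 9 groups come from 2 libraries, so these values describe the cells and carry no test.

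The remaining parts of the route were read from lists of genes by role. Of 8 other Rab27 effectors (*Sytl1*, *Sytl3*, *Sytl4*, *Sytl5*, *Exph5*, *Unc13d*, *Rph3al* and *Rph3a*), none reached 10 CPM in either group; *Sytl4* was the most abundant, at 3.94 CPM in early anagen and 0.322 in the bulb. *Mlph* and *Sytl2* were thus the listed Rab27 effectors above 10 CPM in both groups. For the lists compared between bulb and early anagen, the share over all genes of at least 10 CPM was 28.7% 2-fold lower and 16.3% 2-fold higher in the bulb. With TMM factors it was 22.2% lower and 23.7% higher. The list genes named as 2-fold apart were read by total UMIs only, so those near 2-fold may depend on the scaling. Another list held 6 genes that regulate or prenylate Rab27 (*Madd*, *Tbc1d10a*, *Chm*, *Chml*, *Rabggta* and *Rabggtb*). Of these, 4 were above 10 CPM, and 1 was 2-fold apart. It was *Chm*, the Rab escort protein, at 27.7 CPM in early anagen and 12.2 in the bulb, a log2 ratio of -1.18 (-1.31 to -1.06). The median of the 4 was -0.12 and turned to 0.19 with TMM factors.

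Of 9 myosins and myosin light chains, 7 were above 10 CPM, with a median log2 ratio of 0.38. *Dynll1*, a light chain of dynein and myosin Va, was higher in the bulb, at 878 beside 439 CPM (1.001). *Myo7a*, the motor that *Myrip* recruits in the retina, was lower, at 15.7 beside 50.5 CPM (-1.69). The other class V motors, *Myo5b* and *Myo5c*, had 0 UMIs in the bulb and 3 and 34 in early anagen, so *Myo5a* was the abundant class V motor in both.

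Of 6 actin nucleators and Rab11 genes, 4 were above 10 CPM. *Spire1* and *Fmn1*, whose products build the actin tracks on which myosin Va moves melanosomes, were both lower in the bulb, *Spire1* at 16.4 beside 60.9 CPM (-1.89) and *Fmn1* at 21.3 beside 71.3 CPM (-1.74). *Rab11a*, the GTPase of recycling endosomes, was higher, at 214 beside 75.2 CPM (1.51). Of 12 genes of transport along microtubules, 10 were above 10 CPM, with a median of -0.27 that turned to 0.042 with TMM factors. *Klc2*, a kinesin light chain, was higher in the bulb (16.8 beside 6.17 CPM, 1.45) and *Kif13a*, a kinesin that brings cargo to melanosomes, was lower (6.21 beside 14.5 CPM, -1.22).

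Beside the transport genes, the genes for the content of the melanosome were read in the same way. All 5 melanin enzyme and matrix genes were 2-fold higher in the bulb, where 16.3% of all genes at that level were 2-fold higher and 28.7% 2-fold lower, led by *Gpr143*, a melanosomal receptor, at 730 beside 59.7 CPM (3.61), with *Mlana* at 1.87, *Pmel* at 1.82, *Tyr* at 1.71 and *Tyrp1* at 1.34. Of 5 ion transporters 4 were 2-fold higher, *Slc24a4* at 3.24, *Slc45a2* at 2.79, *Trpm1* at 2.57 and *Slc24a5* at 2.23. The other, *Atp7a*, was lower in the bulb, at -0.81. Of 16 cargo-sorting genes above 10 CPM 4 were 2-fold higher, *Rab38* (3.64), *Bloc1s5* (2.18), *Hps4* (1.77) and *Bloc1s2* (1.21), and 2 were 2-fold lower, *Bloc1s1* (-1.39) and *Hps5* (-1.04). The list medians were 1.82, 2.57 and 0.69, beside -0.19 for all genes above 10 CPM.

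**Figure D5:**
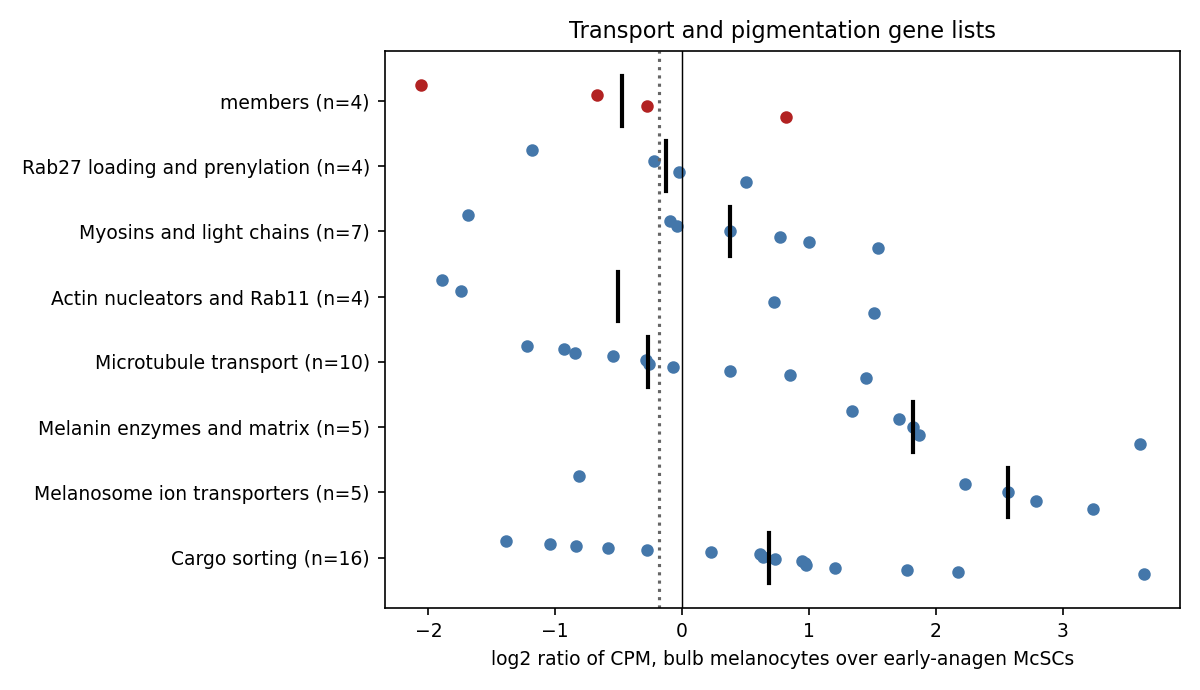
Log2 ratio of CPM, bulb melanocytes over early-anagen McSCs, for each gene with at least 10 CPM in either group, by list; black bars are list medians and the dotted line is the median of all genes at that level (-0.19). The 5 melanin genes all lie above 1, whereas the transport members range from -2.06 to 0.82.

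The lists were also read in the *Oca2* split of early anagen. There the members' median of 0.60 lay above those of the lists for Rab27 regulation and prenylation (-0.20), actin nucleators (0.05), microtubule transport (0.12), myosins and light chains (0.17) and cargo sorting (0.36). It lay below those for melanin enzymes (1.14) and ion transporters (1.39). Over all genes 1.58% were 2-fold higher and 2.37% 2-fold lower in *Oca2*+ cells. The lists other than pigment content held 1 gene that was 2-fold apart, *Mreg*, whose product melanoregulin moves melanosomes along microtubules, at 19.8 CPM in *Oca2*+ and 9.25 in *Oca2*- cells (1.10, 0.65 to 1.52). *Fmn1* was at 96.2 beside 73.3 CPM (0.39, 0.20 to 0.57), so that it, like *Myo5a* and *Sytl2*, was higher in *Oca2*+ cells and lower in the bulb.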

How the data were processed

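GFP-sorted mouse skin cells of each stage had been sequenced as 1 droplet library. The values the authors deposited are raw counts of UMIs, 1 matrix a library. They had aligned the reads to mm10 and counted with Cell Ranger 6.0.1, per the labels, and no filter on cell type had been applied. Cells were selected with the UMI and mitochondrial limits of the study's methods. No doublet caller was run. The cells removed by the keratin limit included 601 early-anagen and 21 bulb cells that held *Dct* and were not keratinocyte-marked. Leaving out the 5% of cells with the most UMIs was an alternative. UMIs were summed over the selected cells of a library and divided by their total (CPM). Shares, and splits by *Oca2*, *Mki67* or *Top2a*, were taken after each cell was thinned without replacement to 5000 or 10000 UMIs (seed 11), which left out 446 bulb cells at 10000. With 1 library per condition no test was run. Ratios of counts have exact conditional binomial 95% intervals, levels exact Poisson intervals and shares Clopper-Pearson intervals, and a limit for a count of 0 uses 3 counts. A gene was counted as apart at 2-fold, provided that it reached 10 CPM on at least 1 side. On simulated counts for 19777 genes of the comparison of bulb with early anagen, 100.0% of genes changed by 2-fold were recovered. Those counts were drawn from the Poisson model that the intervals assume. The run therefore checked the calculation only, and not whether the intervals hold for cells that vary beyond counting error.

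The members and gene lists were chosen with earlier results of these data known. Named from the lists were genes 2-fold apart between bulb and early anagen, up to 6 a list by size; 1 such gene is not reported here. A few were named for other reasons after their values were seen: *Sytl4*, *Myo5b*, *Myo5c*, *Atp7a*, and *Mreg* and *Fmn1* in the *Oca2* split. The 3 genes most like a member were taken by Pearson's r of log2(CPM + 1), with a pseudocount of 1, over 9 cell groups. Python 3.11.15, numpy 2.4.6, scipy 1.17.1, pandas 2.3.3 and, for TMM factors only, edgeR 4.0.16 in R 4.3.3 were used. Alternatives were other cell limits, depths, totals and scaling; 1 of them, a minimum of 0.5% of UMIs from *Dct*, *Tyrp1*, *Pmel* and *Mlana*, was added after the data were seen.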

Additional observations from a re-analysis of the deposited data

Results flagged for a closer look

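The 76 cells of the early-anagen library with more keratin than melanocyte UMIs were used in the report as a background. They held some Rab27 genes at higher levels than the selected McSCs. *Rab27b* was at 45.0 CPM in them, beside 0.475 CPM in the early-anagen McSCs. *Sytl1*, which encodes the RAB27 effector SLP1, was at 54.0 CPM (46.0 to 63.0), beside 0.185 CPM in the McSCs. *Exph5*, which encodes the RAB27B effector SLAC2-B, was at 20.0 CPM (15.3 to 25.7), beside 0.0792 CPM. At least 1 UMI was seen in 42.1% of the 76 cells for *Rab27b*, 60.5% for *Sytl1* and 35.5% for *Exph5*. The bulb library had 7 such cells, with 14 UMIs of *Rab27b*, 11 of *Sytl1* and 1 of *Exph5*. These cells lie outside the comparisons and were picked up because their values exceed the limit that a count of 0 allows, 0.9998 CPM for the 76 cells. No more was tested on them.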

How the results depend on the processing

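*Rab27a*, *Sytl2* and *Myo5a* had 1 sign under every alternative run for the bulb over early anagen. For the bulb over early anagen the log2 ratio ranged from 0.66 to 1.13 for *Rab27a* (12 alternatives), from -0.83 to -0.36 for *Myo5a* and from -2.22 to -1.75 for *Sytl2*. *Mlph* ranged from -0.44 to 0.034, the last with TMM factors. *Rab27b* went to -0.99 with at least 3 *Dct* UMIs, -0.39 with no keratin limit and -2.37 with at least 0.5% of UMIs from melanocyte genes. The median over the 6 members, -0.48, was -0.83 with at least 3 *Dct* UMIs, -0.52 with cells thinned to 5000 UMIs, -0.16 with TMM factors, -0.64 with a total without mitochondrial, ribosomal protein and pigmentation genes, -0.55 as the mean of each cell's CPM, -0.52 without the 5% of cells with the most UMIs and -1.37 with the melanocyte-gene minimum. TMM factors turned the lists for Rab27 regulation and prenylation to 0.19 and microtubule transport to 0.042. In the *Oca2* split the actin nucleator list (0.05) turned to -0.022 in non-cycling cells, -0.14 with no keratin UMI and -0.013 with TMM factors, which also took the all-gene median to -0.0025. The 4 abundant members had 1 sign there under all 9 alternatives, from 0.46 (*Sytl2*) to 1.01 (*Rab27a*, with at least 2 *Oca2* UMIs). In the cycling split *Mlph*, *Myo5a* and *Sytl2* were below 0 under all 6, and *Rab27a* ranged from -0.24 to -0.045, with an interval that spanned 0 in 3 of them. Co-detection of the core complex followed depth: 39.7% and 71.6% in early anagen, and 46.9% and 65.9% in the bulb, at 10000 UMIs and with all UMIs. In the *Oca2* split the count of genes 2-fold higher, 123, was 197 with at least 2 *Oca2* UMIs and 211 at 5000 UMIs, and that of genes 2-fold lower, 185, was 59 with all UMIs. In the cycling split the count lower went from 37 to 73. For the bulb over early anagen, TMM factors took the count of genes 2-fold higher from 1305 to 1904 and that of genes 2-fold lower from 2304 to 1781. Apart from those set by depth, the causes were not tested. No paired analysis was possible because each condition was 1 library. With 1 library a condition, differences between mice could not be measured. The direction of *Rab27b* rests on which cells are kept, and no alternative was run for *Myrip*, with 11 UMIs and 1.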

Other observations

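In the early-anagen library 601 cells held *Dct* and at least 3 UMIs of *Krt10* and *Krt14* together but were not keratinocyte-marked. The keratin limit left them out of the comparisons. They carried the 4 abundant members at lower levels than the selected McSCs. *Mlph* was at 133 CPM (126 to 139) in them, *Rab27a* at 80.3 (75.3 to 85.6), *Myo5a* at 165 (158 to 172) and *Sytl2* at 70.8 (66.1 to 75.8). *Sytl1* was at 2.11 CPM and *Rab27b* at 1.52 CPM, between their levels in McSCs and in keratinocyte-marked cells. *Oca2* was seen in 21.1% of them before thinning, beside 454 of the 2785 selected McSCs. The 679 early-anagen cells that passed the UMI and mitochondrial limits but were not selected, these among them, had a median of 14214 UMIs. The selected McSCs had a median of 24528, and the shares were not compared at equal depth.

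*Mitf*, the transcription factor that many pigment genes depend on, was, like *Myo5a*, higher in early-anagen cells with *Oca2* than in those without. It was at 407 CPM in early-anagen cells with no *Oca2* UMI, and at 630, 704, 902 and 822 CPM with 1, 2, 3 to 5 and 6 or more. In bulb melanocytes it was at 340, 327 and 325 CPM in the 3 classes of rising *Oca2*. Relative to total UMIs these values lay below each of the early-anagen classes. The all-gene median of the bulb over early anagen was itself -0.42, and another scaling was not run for *Mitf*. No direction between the libraries is therefore given for *Mitf*. *Slc24a5*, an ion exchanger of the melanosome, went from 785 to 1793, 2007, 2406 and 3028 CPM over the early-anagen classes and was at 4388, 4486 and 4680 CPM in the bulb classes.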
